A study of Mus musculus with 6 samples.

Results

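Integrins and laminins were examined in Tomato+ cells sorted from mouse knee cartilage, by taking from the expression table every gene whose symbol names an integrin α subunit, an integrin β subunit or a laminin α, β or γ chain. The rule used symbols alone and no measured value, and it found 37 of the 17854 genes in the table: 18 integrin α genes, 8 integrin β genes and 11 laminin genes. Of these, 32 passed the filter on low counts and were tested. The other 5 (Itgae, Itgb6, Lama1, Lama3 and Lamb3) are described by their values.

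There were 2 groups of 3 libraries of bulk RNA, each from male C57BL/6 mice. The MSC-derived libraries hold Tomato+ cells recovered from the repaired joint cartilage of mice with surgically induced knee osteoarthritis, after mesenchymal stromal cells (MSCs) had been injected into the joint. The injected cells were Tomato+ cells of inguinal white adipose tissue from Prrx1-Cre; R26 tdTomato donors, in which a Cre driven by the Prrx1 promoter of limb mesenchyme switches on the red protein for good in a cell and all its progeny. The endogenous libraries hold articular Tomato+ cells of mice with the genotype Prrx1-Cre; R26 tdTomato, matched for age and sex, which received no injection. All 6 libraries therefore carry the same reporter, but the groups differ at once in the origin of the cells, in the host and in the joint injury, and these cannot be told apart. The labels call every sample chondrocyte, name the groups Inject Prrx and Native Prrx, and give no age in numbers. The sort was on Tomato only, and no gate against blood cells is described.

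The libraries held between 22060628 and 24881796 expected counts, so that 3 counts correspond to between 0.121 and 0.136 CPM, the unit that scales each library's counts to a common total. Endogenous library 1 stood apart: 3449 genes had no count in it, against 1323 and 1375 in the other endogenous libraries and 1923 to 1936 in the MSC-derived ones. The 10 chondrocyte markers were all lower in the MSC-derived libraries, with summed levels of 1060 to 1110 CPM against 50500 to 53200, and Col2a1, the main cartilage collagen, measured 435 to 469 CPM against 34900 to 35700. The 10 pan-leukocyte markers were all higher there (7490 to 7560 against 406 to 482 CPM in sum), and Ptprc, which encodes CD45, measured 344 to 366 against 15.0 to 26.6 CPM. The MSC-derived libraries thus go against their chondrocyte label in these markers. The name MSC-derived follows the origin that the study gives for these cells, which was not tested here.

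An integrin is a membrane receptor made of an α and a β subunit, and the pairing decides what it binds: collagens, laminins, proteins with an RGD motif such as fibronectin, or counter-receptors on other cells. Laminins are secreted trimers of an α, a β and a γ chain that form the backbone of basement membranes. Chondrocytes lack a basement membrane but carry a thin pericellular matrix, to which they attach mainly through integrins that contain Itgb1, whereas the Itgb2 integrins belong to leukocytes.

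Because closely related genes can share reads, the coding sequences of the 37 genes were compared in 666 pairs (GENCODE transcripts of GRCm38). A single pair, Itgad and Itgax, shared any run of 50 bases. These genes are neighbours on mouse chromosome 7, in the order Itgam, Itgax, Itgad, and encode leukocyte α subunits. The longest run they share spans 188 bases, at positions 1324 to 1511 of the 3606 coding bases of Itgad and 1201 to 1388 of the 3507 of Itgax, counted from 1 at the start codon. It is shown because reads inside it cannot be assigned to either gene.

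Itgad and Itgax shared run: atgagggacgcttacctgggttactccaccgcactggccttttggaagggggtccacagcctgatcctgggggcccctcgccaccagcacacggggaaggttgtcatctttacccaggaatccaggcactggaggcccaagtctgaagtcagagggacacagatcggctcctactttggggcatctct

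The counts show the same link. Of all genes, Itgax alone completed the fractional counts of Itgad to whole numbers in every library (within 0.011 counts), and 11.1% of the 50-base runs of Itgax also occur in Itgad. The levels of Itgax in libraries rich in Itgad are therefore uncertain.

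For the start sites, 23 of the 37 genes had a RefSeq promoter window (GRCm38.p6). The last 120 bases before the start are shown for the leukocyte genes Itgam and Itgax and for the collagen receptor genes Itga10 and Itga11, which differed in opposite directions. Capitals mark GAGGAA, a core motif of the myeloid factor PU.1, or its reverse complement TTCCTC. The windows are Itgam at chr7:128062520-128062639 (+ strand), Itgax at chr7:128129430-128129549 (+ strand), Itga10 at chr3:96645464-96645583 (+ strand) and Itga11 at chr9:62677735-62677854 (+ strand).

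Itgam: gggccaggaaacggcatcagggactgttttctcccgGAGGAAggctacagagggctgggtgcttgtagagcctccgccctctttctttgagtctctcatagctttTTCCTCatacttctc
Itgax: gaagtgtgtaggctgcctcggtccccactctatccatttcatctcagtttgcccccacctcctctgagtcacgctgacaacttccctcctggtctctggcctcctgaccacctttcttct
Itga10: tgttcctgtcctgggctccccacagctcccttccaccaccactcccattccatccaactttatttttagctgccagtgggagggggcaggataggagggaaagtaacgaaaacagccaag
Itga11: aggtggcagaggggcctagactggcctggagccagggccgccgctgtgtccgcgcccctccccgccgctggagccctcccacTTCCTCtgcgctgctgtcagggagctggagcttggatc

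GAGGAA, on either strand, lay within the 250 bases before the start in 1 of the 6 windows of genes called higher (Itgam) and in 8 of the 12 of genes called lower (Itga5, Itga11, Itgav, Itgb1, Lama2, Lama5, Lamb1 and Lamb2). It occurred in 23.1% of the 27025 windows of that length over all genes. The RUNX core TGTGGT lay in 1 of the 6 (Itga4) and 0 of the 12, against 14.2% of all windows. The SP1 box GGGCGG lay in 3 of the 6 and 5 of the 12, against 32.9%. These are matches of letters and say nothing of binding. Itgad, Itgal and Itgb2, also called higher, had no window and were not searched, nor were some genes called lower.

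The comparison asks how the RNA of adhesion receptor genes in cells recovered after MSC injection differed from that in Tomato+ cells of native joints. The endogenous libraries were high in osteoblast markers too, at 81900 to 89000 CPM in sum, beside 50500 to 53200 CPM for chondrocyte markers. The part of each cell type in the endogenous levels was not tested. In the MSC-derived libraries 9 of the 32 tested genes were higher and 18 were lower at a threshold of 0.05 on the adjusted p (edgeR quasi-likelihood test, Benjamini-Hochberg adjustment over all genes). Over all 14289 genes tested, 31.3% were called higher (4468) and 30.3% lower (4333). By limma on log2(TPM + 1) those counts were 3124 and 5962, with a median over all genes of -0.28 on the log2 scale. Without endogenous library 1 the edgeR fit called more genes, 5562 higher and 5686 lower of 14728 tested. The tested integrin and laminin genes had a median of -1.10 in log2 fold change (MSC-derived over endogenous), beside 0.05 for all genes. In 28 of the 32 the groups did not overlap (87.5%), against 72.4% of all genes. RNA from bulk samples does not show whether fewer cells carried a gene or each cell carried less of its RNA.

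**Figure D1:**
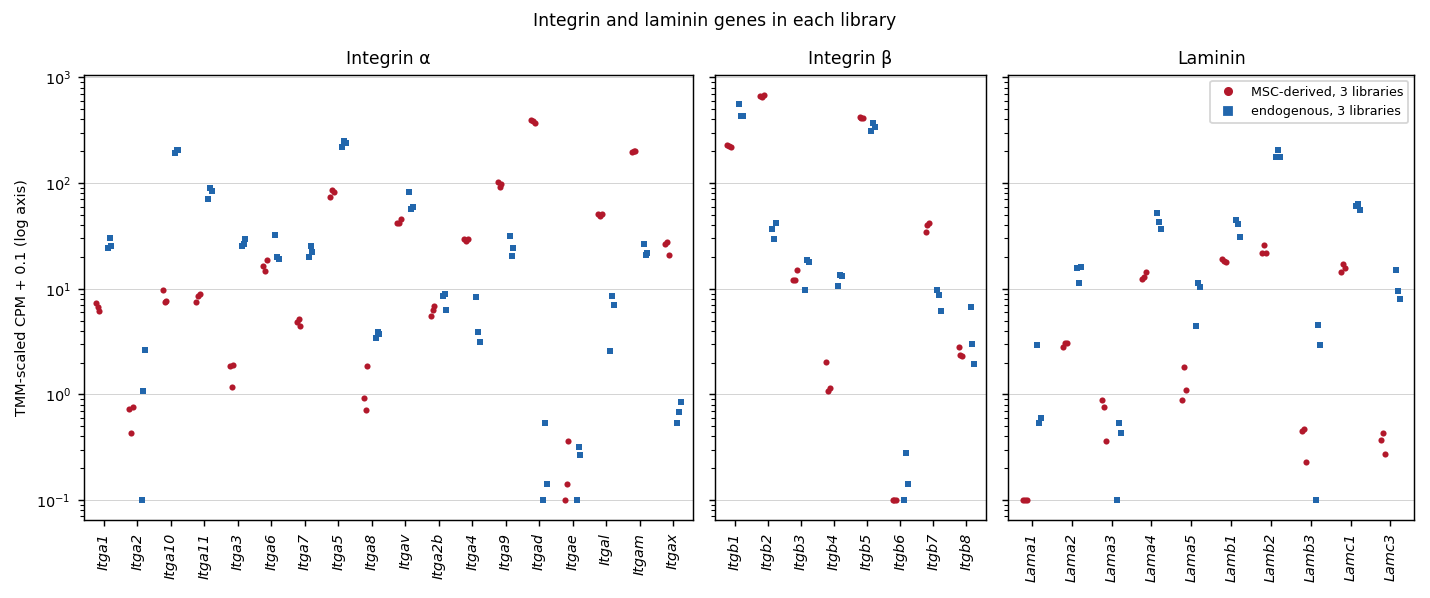
Level of 36 of the genes in each library, as TMM-scaled CPM plus 0.1 on a log axis, with circles for the 3 MSC-derived and squares for the 3 endogenous libraries. Itgad stood at 371 to 395 CPM in the MSC-derived libraries and at 0 to 0.442 in the endogenous ones, while Itga10 stood at 7.34 to 9.70 against 191 to 205.

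The plot of levels by library shows the direction for each class of subunit. All 4 tested leukocyte α genes and the pair Itga4 and Itga9 were higher in the MSC-derived libraries. No collagen-binding, laminin-binding or RGD-binding α gene was called higher, and 8 of those 11 were called lower. All 8 tested laminin genes were lower. TMM-scaled CPM is used below to compare 1 gene between libraries, and TPM, which divides by transcript length, to compare genes with each other.

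Of the collagen receptor genes, Itga10 had the most RNA in the endogenous cells. Itga10, a receptor for type II collagen found on chondrocytes, measured 9.70, 7.34 and 7.52 CPM in MSC-derived libraries 1 to 3 and 191, 205 and 203 CPM in the endogenous libraries. Every endogenous value was far above every MSC-derived one, a 24.4-fold lower level (log2 fold change -4.61 ± 0.13, SE, n = 3 per group, adjusted p = 1.62e-07). Itga11, the fibrillar collagen receptor of mesenchymal cells, measured 7.31, 8.37 and 8.75 CPM against 71.0, 89.0 and 84.5 CPM. Its level was 10.01-fold lower (-3.32 ± 0.14, adjusted p = 7.91e-07) and the groups did not overlap.

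Itga1, which prefers the type IV collagen of basement membranes, measured 7.19, 6.65 and 6.08 CPM in the MSC-derived libraries and 24.3, 29.8 and 25.5 CPM in the endogenous ones. It was 3.99-fold lower (-2.0 ± 0.15, adjusted p = 2.06e-05). Itga2, a collagen receptor of platelets and epithelia, was near the limit of detection, at 0.626, 0.328 and 0.656 CPM against 0, 0.973 and 2.55 CPM. Its groups overlapped, and with -1.13 ± 1.21 on the log2 scale it was not called (adjusted p = 0.446). Without endogenous library 1, in which it had no count, Itga2 was called lower (-1.77, adjusted p = 0.00490), and without endogenous library 3 its direction turned (0.14, adjusted p = 0.937).

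Among the laminin-binding subunits, Itga3 and Itga7 were lower. Itga3, a receptor for the laminins of epithelial basement membranes, measured 1.76, 1.07 and 1.79 CPM against 25.2, 26.4 and 29.8 CPM in the endogenous libraries. This was 17.6-fold lower (-4.13 ± 0.24, adjusted p = 4.26e-06). Itga7, the laminin receptor of muscle, measured 4.77, 5.13 and 4.37 CPM against 19.9, 25.4 and 22.3 CPM and was 4.74-fold lower (-2.24 ± 0.17, adjusted p = 1.84e-05). In both genes the groups were well separated.

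Itga6, the laminin receptor subunit that also joins Itgb4 in hemidesmosomes, measured 16.2, 14.5 and 18.5 CPM against 32.4, 19.8 and 19.2 CPM. Although the groups did not overlap, the difference was not called (-0.54 ± 0.23, adjusted p = 0.0803). The high value was that of endogenous library 1, and without it Itga6 was called lower by a smaller amount (-0.30, adjusted p = 0.0340).

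Of the RGD-binding subunits, Itga5 had the highest TPM of all α genes in the endogenous cells and was lower in the MSC-derived ones. Itga5, the fibronectin receptor subunit, measured 73.7, 86.8 and 81.6 CPM against 220, 250 and 237 CPM, 2.92-fold lower (-1.55 ± 0.09, adjusted p = 5.08e-06). Itgav, which pairs with 5 different β genes and binds vitronectin and latent TGF-β, measured 42.1, 41.5 and 45.7 CPM against 81.5, 57.1 and 59.2 CPM. It was 1.53-fold lower (-0.61 ± 0.15, adjusted p = 0.00921), with endogenous library 1 again the highest.

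Itga8, whose ligand in development is nephronectin, was scarce, with 0.821, 0.615 and 1.75 CPM against 3.30, 3.76 and 3.6 CPM. It was called lower (-1.74 ± 0.49, adjusted p = 0.0162), but not without MSC-derived library 1 (adjusted p = 0.0737) or without MSC-derived library 2 (adjusted p = 0.0641). Itga2b, the platelet fibrinogen receptor subunit, measured 5.43, 6.19 and 6.82 CPM against 8.5, 8.76 and 6.19 CPM. Its groups overlapped and it was not called (-0.35 ± 0.23, adjusted p = 0.233). Of the megakaryocyte and platelet markers 2 of the 9 tested were higher and 2 lower, with sums of 78.6 to 79.1 against 33.8 to 39.9 CPM. Each share was 22.2%, below the 31.3% and 30.3% of all genes.

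The subunits Itga4 and Itga9, which are related in sequence and share Vcam1 as a ligand, were both higher in the MSC-derived libraries. Itga4 measured 29.4, 27.9 and 29.5 CPM against 8.24, 3.80 and 3.01 CPM, 5.77-fold higher (2.53 ± 0.36, adjusted p = 0.000622). Itga9, also a tenascin receptor, measured 103, 91.9 and 97.7 CPM against 31.7, 20.1 and 24.4 CPM, 3.83-fold higher (1.94 ± 0.17, adjusted p = 3.95e-05). Within the endogenous group both were highest in library 1. The counts of Itga4 were fractional in all 6 libraries, so that some of its reads were shared with genes that could not be named.

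All 4 tested leukocyte α subunits were higher, with a median log2 fold change of 4.25. Itgad, a subunit of certain tissue macrophages, had 10113.63, 9493.89 and 8481.98 expected counts in the MSC-derived libraries and 0, 10 and 1.06 in the endogenous ones, or 395, 390 and 371 CPM against 0, 0.442 and 0.0419 CPM. The log2 fold change was 11.20 ± 0.41 (adjusted p = 4.86e-07). Its size rests on few counts: without endogenous library 2, which held nearly all of them, it was 13.79, and without library 1 it was 10.58, with Itgad called higher each time.

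Itgax, a marker of dendritic cells and some macrophages, measured 26.4, 27.5 and 20.9 CPM against 0.441, 0.575 and 0.753 CPM, 41.8-fold higher (5.39 ± 0.26, adjusted p = 1.67e-06). In counts this was 674.37, 671.11 and 478.02 against 10, 13 and 17.94, and some of the reads could belong to Itgad, as the shared run above shows. Itgad also exceeded Itgax in TPM in the MSC-derived libraries, at 134 ± 5.34 against 8.42 ± 1.2 (SD, n = 3).

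Itgam, the complement receptor subunit of macrophages and neutrophils, measured 198, 199 and 199 CPM against 26.5, 20.6 and 21.6 CPM. It was 8.69-fold higher (3.12 ± 0.11, adjusted p = 4.56e-07). Itgal, the subunit that lymphocytes and myeloid cells use to bind Icam1, measured 50.5, 48.5 and 50.4 CPM against 2.47, 8.49 and 6.99 CPM and was 8.31-fold higher (3.06 ± 0.39, adjusted p = 0.000349). Both genes had reads in every endogenous library. Itgae, the E-cadherin-binding subunit of intraepithelial T cells, had too few reads to be tested, with 0 to 0.262 CPM in the MSC-derived and 0 to 0.221 CPM in the endogenous libraries.

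Summed marker levels of blood cells moved with these genes. The 10 macrophage markers were all called higher (12100 to 12300 against 70.5 to 83.2 CPM in sum), and Adgre1 measured 759 to 795 CPM against 0.308 to 4.44. The 10 neutrophil markers were likewise all higher, at 44200 to 46300 against 2130 to 3020 CPM in sum, with S100a8 at 14500 to 16500 against 474 to 795. Of the T, NK and B cell markers 7 of the 9 tested were higher, with sums of 281 to 292 against 18.1 to 23.1 CPM and Cd3e at 2.01 to 3.89 against 0 to 0.586. Of the eosinophil and mast cell markers 4 of the 8 tested were higher, with sums of 1290 to 1340 against 70.4 to 87.2 CPM and Prg2 at 636 to 660 against 46.3 to 63.8. No macrophage, neutrophil or pan-leukocyte marker was at 0 in all 3 libraries of either group. The part of blood cells in the integrin values was not tested.

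**Figure D2:**
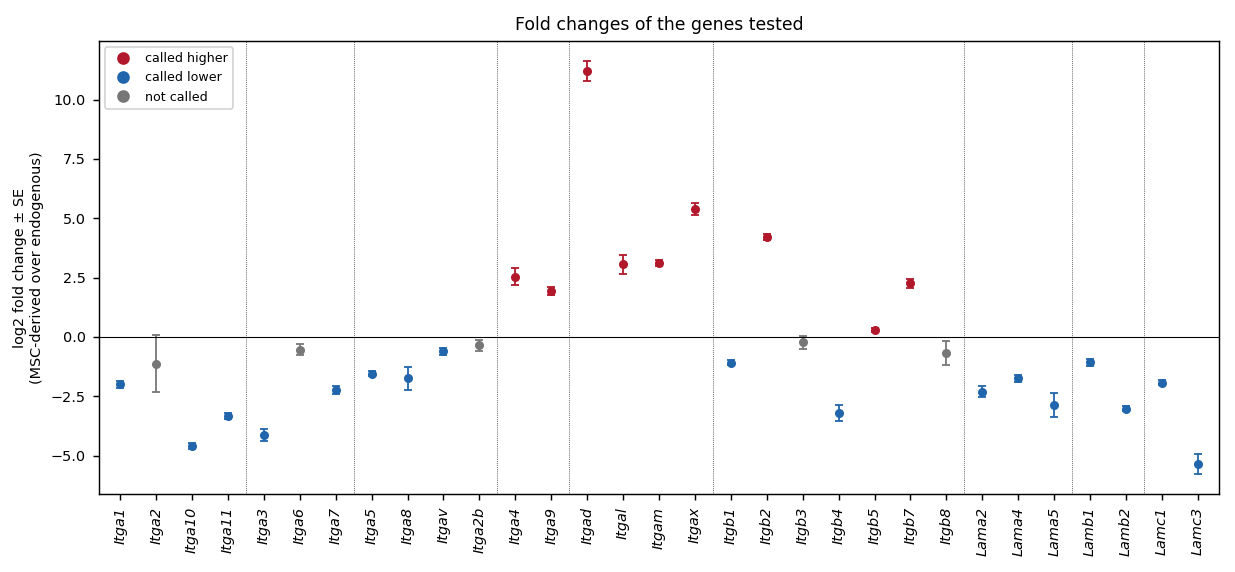
Log2 fold change (MSC-derived over endogenous) with its standard error for 31 of the tested genes, in the order of their classes, with the call marked by colour. Itgad at 11.20 and Lamc3 at -5.34 mark the ends, and Itgb5 at 0.28 is the smallest change that was called, with a value below 0 on the TPM scale.

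The plot of fold changes also sets the β genes beside their α partners: Itgb2 rose and Itgb1 fell. Itgb2, the common β subunit of the leukocyte integrins, measured 668, 645 and 684 CPM in the MSC-derived libraries and 36.5, 29.6 and 41.8 CPM in the endogenous ones. It was 18.5-fold higher (4.21 ± 0.14, adjusted p = 2.70e-07) and had the highest TPM of all 37 genes in the MSC-derived cells (319 ± 7.30). Itgb1, the most widely shared β subunit, measured 228, 224 and 219 CPM against 557, 431 and 429 CPM. It was 2.11-fold lower (-1.08 ± 0.11, adjusted p = 0.000105), and endogenous library 1 was the highest.

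Itgb7, the β partner of Itga4 and Itgae in lymphocytes, measured 34.6, 39.8 and 41.7 CPM against 9.69, 8.58 and 6.03 CPM and was 4.78-fold higher (2.26 ± 0.20, adjusted p = 4.32e-05). Itgb4, known from hemidesmosomes, measured 1.92, 0.985 and 1.05 CPM against 10.5, 13.4 and 13.1 CPM and was 9.29-fold lower (-3.22 ± 0.33, adjusted p = 9.99e-05). Both sets of values were clearly separated between the groups.

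Itgb5, a vitronectin receptor subunit that pairs with Itgav, was high in both groups. It measured 420, 415 and 412 CPM against 309, 372 and 342 CPM, which is 1.22-fold higher by TMM-scaled counts (0.28 ± 0.08, adjusted p = 0.0171), but below 0 on the TPM scale (-0.13 by limma on log2(TPM + 1)). On both scales it lay above the median of all genes, which was 0.05 in the count fit and -0.28 in the TPM fit. Its call was lost when any MSC-derived library was left out (adjusted p = 0.0511 to 0.0614).

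Itgb3, the β subunit of platelets and osteoclasts, measured 12.1, 12.1 and 15.0 CPM against 9.60, 18.6 and 17.7 CPM and was not called (-0.23 ± 0.27, adjusted p = 0.478). Without endogenous library 1, the low value, it was called lower (-0.53, adjusted p = 0.00118). Itgb8, an activator of latent TGF-β with Itgav, measured 2.70, 2.26 and 2.23 CPM against 6.65, 2.92 and 1.84 CPM. Here endogenous library 1 was the high value, the groups overlapped and the gene was not called (-0.67 ± 0.51, adjusted p = 0.291). Itgb6, an epithelial partner of Itgav, was at 0 in all 3 MSC-derived libraries and at 0 to 0.177 CPM in the endogenous ones, too low for a test.

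Read as heterodimers, 24 known α and β pairs could be formed from these genes. Both partners were called higher in 5 pairs, those of Itgad, Itgal, Itgam and Itgax with Itgb2 and that of Itga4 with Itgb7. Both were called lower in 8 pairs, all with Itgb1 as the β subunit (Itga1, Itga3, Itga5, Itga7, Itga8, Itga10, Itga11 and Itgav). The partners went opposite ways in 3 pairs: Itga4 and Itga9 were higher while Itgb1 was lower, and Itgav was lower while Itgb5 was higher by TMM-scaled counts, with a value below 0 on the TPM scale. In the other 8 pairs at least 1 partner was not called or not tested. Since 12 of the pairs share Itgb1 and 4 share Itgb2, these pairs are not independent of each other.

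The summed level of the α genes depended on the scale, while the shares of the classes lay far apart. The 18 α genes summed to 281 ± 5.71 TPM in the MSC-derived and 275 ± 16.0 TPM in the endogenous libraries (exact permutation test, two-sided, p = 0.60), and to 962 ± 9.61 against 756 ± 13.2 in TMM-scaled CPM, where the groups did not overlap (p = 0.10, the smallest possible). In TPM, which all shares here use, leukocyte α genes made up 75.4% ± 0.86 of the α sum in the MSC-derived and 4.15% ± 0.09 in the endogenous libraries (SD, n = 3 per group). Collagen-binding α genes made up 2.1% ± 0.08 against 40.0% ± 1.58, and RGD-binding ones 12.4% ± 0.91 against 43.1% ± 0.50. In these 3 classes the libraries of the groups did not overlap.

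Laminin-binding α genes took 1.99% ± 0.18 against 9.97% ± 0.52 of the α sum, and Itga4 with Itga9 took 8.04% ± 0.45 against 2.77% ± 0.83. Of single genes, Itgad alone held 47.7% ± 0.97 of the α sum in the MSC-derived and 0.0273% ± 0.0409 in the endogenous libraries. Itga5 and Itga10 led in the endogenous libraries, with 35.5% ± 1.29 and 26.2% ± 0.50, against 8.73% ± 0.74 and 0.769% ± 0.118 in the MSC-derived ones. With 3 libraries against 3, an exact permutation test cannot go below p = 0.10, the value that each of these shares reached. Over all 42 shares compared, the smallest adjusted p (Benjamini-Hochberg) was 0.117, so no share could pass a threshold of 0.05.

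**Figure D3:**
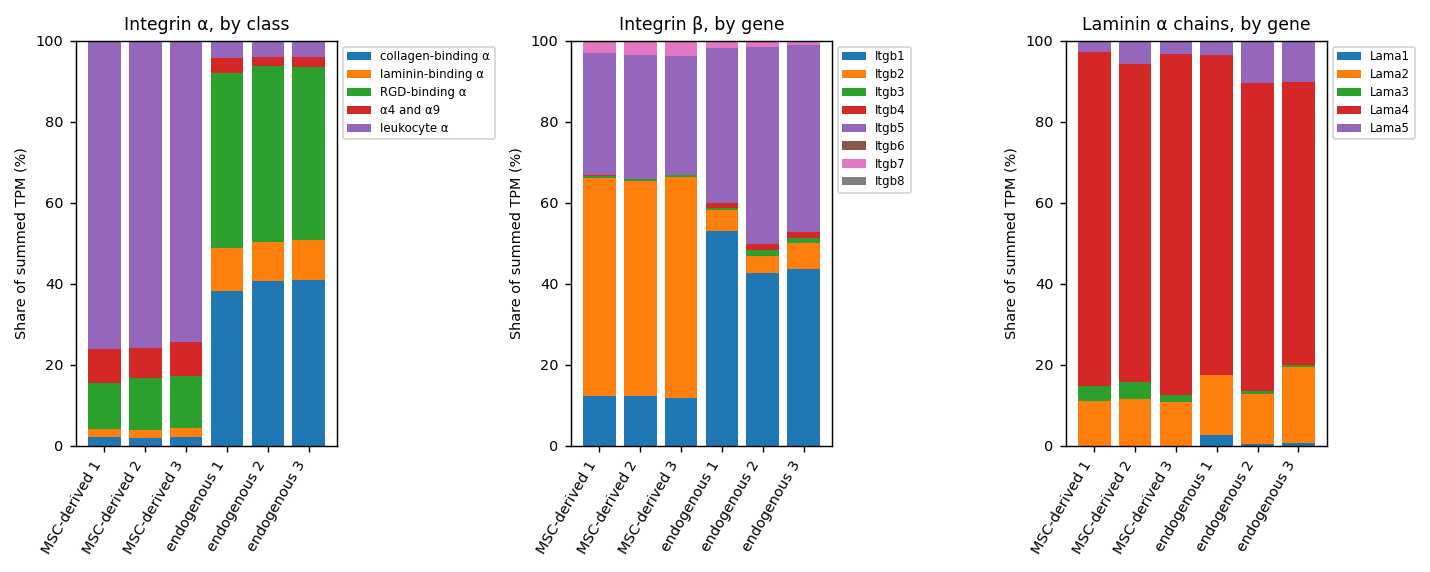
Share of the summed TPM, in percent, taken in each library by the 5 classes of integrin α genes (left), by each integrin β gene (middle) and by each laminin α chain gene (right). Leukocyte α genes filled 75.4% on average in the MSC-derived and 4.15% in the endogenous libraries, and Itgb2 held the largest β share in the MSC-derived libraries, while Lama4 filled most of the laminin α chains in both groups.

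The plot of shares also gives the β genes. Itgb2 held 53.8% ± 0.81 of the summed β TPM in the MSC-derived and 5.30% ± 1.01 in the endogenous libraries. Itgb1 held 12.1% ± 0.36 against 46.4% ± 5.68 and Itgb5 held 30.0% ± 0.58 against 44.3% ± 5.41 (exact permutation p = 0.10 for each, the smallest possible). Itgb7 held 3.37% ± 0.32 against 1.28% ± 0.26. The β genes summed to 592 ± 5.12 TPM in the MSC-derived and 444 ± 50.6 TPM in the endogenous libraries.

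The order of levels within a group, in TPM, shows which subunit genes had the most RNA. Receptor protein was not measured. In the MSC-derived libraries the α genes ran from Itgad (134 ± 5.34) over Itgam (56.8 ± 0.39), Itga5 (24.5 ± 2.03), Itga9 (18.4 ± 1.00) and Itgal (12.7 ± 0.23) to Itgax (8.42 ± 1.2) and Itgav (7.72 ± 0.29), and of these neighbours the last pair alone overlapped. In the endogenous libraries they ran from Itga5 (97.4 ± 3.02) over Itga10 (71.9 ± 2.96) and Itga11 (29.6 ± 1.14) to Itgav (15.8 ± 4.53), with no overlap between neighbours. Below them, Itga3, Itga7, Itgam, Itga1, Itga6, Itga9 and Itga2b lay between 10.1 and 4.22 TPM and each overlapped with the next. Among the β genes of the endogenous libraries, Itgb1 (208 ± 50.1) and Itgb5 (195 ± 7.96) overlapped.

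Every laminin chain gene that was tested was lower in the MSC-derived libraries. The 11 laminin genes summed to 16.3 ± 0.71 TPM in the MSC-derived and 110 ± 13.0 TPM in the endogenous libraries. All 8 tested genes were called lower, against 30.3% of all genes, at a median of -2.59 in log2 fold change. Of the α chains, Lama4, known from vessel walls and the matrix around fat and muscle cells, measured 12.3, 12.7 and 14.3 CPM against 52.4, 43.1 and 36.8 CPM, 3.37-fold lower (-1.75 ± 0.16, adjusted p = 5.67e-05). Lama2, the α chain of muscle and nerve, measured 2.70, 3.0 and 2.97 CPM against 15.8, 11.2 and 16.0 CPM, 4.96-fold lower (-2.31 ± 0.22, adjusted p = 7.16e-05). In both genes each endogenous library exceeded each MSC-derived one.

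Lama5, the most widespread α chain of adult basement membranes, measured 0.782, 1.72 and 1.01 CPM against 4.32, 11.1 and 10.2 CPM, 7.29-fold lower (-2.87 ± 0.49, adjusted p = 0.00161). Endogenous library 1 was the lowest of its group here. Lama1, an α chain mainly of the embryo, had no count in any MSC-derived library and 65, 10 and 12 counts in the endogenous ones. Set against a floor of 3 counts per library, its mean level was at least 10.2-fold lower in the MSC-derived libraries. That bound rests on endogenous library 1, and without it the level was at least 3.81-fold lower. Lama1 did not pass the filter, but wherever a fit without that filter or without 1 library tested it, it was called lower (adjusted p = 0.00870 with no filter).

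Of the β chains, Lamb2 was the laminin gene with the highest TPM in both groups. Lamb2, a chain of the kidney filter and the nerve-muscle junction, measured 21.8, 25.6 and 21.5 CPM against 177, 205 and 177 CPM, 8.11-fold lower (-3.02 ± 0.11, adjusted p = 4.92e-07). Lamb1, the more common β chain, measured 19.2, 18.26 and 17.97 CPM against 44.5, 40.6 and 31.1 CPM, 2.095-fold lower (-1.07 ± 0.15, adjusted p = 0.000676). The share of Lamb2 in the β chain TPM was 55.4% ± 2.62 against 81.9% ± 1.83 in the endogenous libraries (exact permutation p = 0.10, the smallest possible).

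Of the γ chains, Lamc1, part of most laminins, measured 14.4, 16.9 and 15.8 CPM against 60.2, 63.2 and 55.9 CPM, 3.80-fold lower (-1.93 ± 0.11, adjusted p = 4.58e-06). Lamc3, a chain with restricted expression, measured 0.274, 0.328 and 0.175 CPM against 15.0, 9.46 and 7.87 CPM, 40.6-fold lower (-5.34 ± 0.42, adjusted p = 2.31e-05). Its counts were fractional in all 6 libraries, and the genes it shared reads with could not be named.

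Lama3 and Lamb3, chains of epithelial laminin, did not pass the filter on low counts. Lama3 measured 0.782, 0.656 and 0.262 CPM against 0, 0.442 and 0.335 CPM, so that the groups overlapped, with the higher mean in the MSC-derived ones (0.567 against 0.259 CPM). Lamb3 had 9, 9 and 3 counts in the MSC-derived and 0, 100 and 68 counts in the endogenous libraries. By edgeR with no filter Lamb3 was not called (adjusted p = 0.0987), whereas without endogenous library 1 it was called lower (adjusted p = 4.09e-07). DESeq2 on all 6 libraries also called it lower (-3.13, adjusted p = 0.0465). The edgeR fits without 1 MSC-derived library did not call it (adjusted p = 0.195 to 0.245). In endogenous library 1 all of Itga2, Itgad, Itgae, Itgb6, Lama3 and Lamb3 had 0 counts.

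The mix of the laminin α chains was compared in TPM as well. Lama4 held 81.8% ± 2.94 of the α chain TPM in the MSC-derived and 75.1% ± 4.71 in the endogenous libraries, with an exact permutation p of 0.20. In both groups Lama4 was the leading α chain and Lamb2 the leading β chain.

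Genes of the proteins that laminins meet in a basement membrane were lower too, in a list chosen, like those below, with earlier results of these data known. Of 16 such genes tested, 15 were called lower (93.8%) and 0 higher, against 30.3% and 31.3% of all genes. Their median was -2.47 on the log2 scale. Agrn was the gene not called (-0.67, adjusted p = 0.408), though without endogenous library 1 it was called lower (-1.21, adjusted p = 6.39e-05). Sparc, a collagen-binding matrix protein also made in quantity by bone cells, measured 930 to 990 CPM against 23100 to 24950 CPM (-4.66 ± 0.06, adjusted p = 2.01e-08). Col15a1, a collagen beside basement membranes, measured 22.2 to 28.0 CPM against 222 to 251 CPM (-3.22 ± 0.12, adjusted p = 4.30e-07). The 10 osteoblast markers were also all lower in the MSC-derived libraries (2460 to 2520 against 81900 to 89000 CPM in sum), with Bglap at 25.5 to 32.0 against 3630 to 7720 CPM, and 9 of the 10 smooth muscle and pericyte markers were lower (104 to 113 against 1050 to 1150 CPM, Acta2 24.5 to 27.6 against 199 to 279). Of the fibroblast and mesenchymal markers 8 of 10 were lower and 1 higher (5100 to 5150 against 97800 to 109000 CPM in sum), with Prrx1 at 15.0 to 17.4 against 62.4 to 89.7 CPM. Endothelial markers went the other way, with 6 of 10 higher and 0 lower (102 to 112 against 30.5 to 51.2 CPM in sum) and Pecam1 at 30.6 to 35.9 against 5.33 to 9.96 CPM. The part of these cell types in the laminin values was not tested.

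The laminin receptors that are not integrins were mostly lower as well. Of 11 tested, 10 were called lower (90.9%), against 30.3% of all genes. None was called higher, and Sgcb was not called (-0.03, adjusted p = 0.858). Sdc4, a syndecan of focal adhesions, measured 136 to 148 CPM against 1412 to 1446 CPM (-3.31 ± 0.07, adjusted p = 5.67e-08). Sdc2, another syndecan, measured 173 to 179 against 261 to 297 CPM (-0.65 ± 0.07, adjusted p = 0.000175).

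Ligands of RGD-binding integrins were mostly lower. Of 14 RGD and related matrix ligands, 12 were called lower (85.7%) and 1 higher (7.14%), with a median of -2.89. Over all genes 30.3% were called lower and 31.3% higher. Ibsp, bone sialoprotein, measured 132 to 147 CPM against 4628 to 5297 CPM (-5.13 ± 0.09, adjusted p = 3.78e-08), and Spp1, osteopontin, measured 750 to 754 against 4277 to 4518 CPM (-2.56 ± 0.05, adjusted p = 6.64e-08). Tgfbi, a matrix protein induced by TGF-β, was the gene called higher, at 206 to 220 against 144 to 152 CPM (0.50 ± 0.07, adjusted p = 0.000493), a call that was lost in both limma fits.

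Of 9 ligands of leukocyte integrins and of Itga4 that were tested, 3 were called higher (33.3%) and 2 lower (22.2%), shares near the 31.3% and 30.3% of all genes. Without endogenous library 1, Icam2 was also called higher (1.59, adjusted p = 8.85e-06) and Icam1 lower (-0.18, adjusted p = 0.00110). Vcam1, the ligand of Itga4, Itga9 and Itgad, measured 6398 to 6475 CPM against 412 to 454 CPM (3.90 ± 0.06, adjusted p = 2.98e-08). Icam4 was low but higher, at 6.52 to 6.95 against 1.32 to 1.90 CPM (2.04 ± 0.29, adjusted p = 0.000570). The junction proteins Jam3 (-2.38 ± 0.23, adjusted p = 6.68e-05) and Jam2 (-1.98 ± 0.12, adjusted p = 5.78e-06) were lower.

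**Figure D4:**
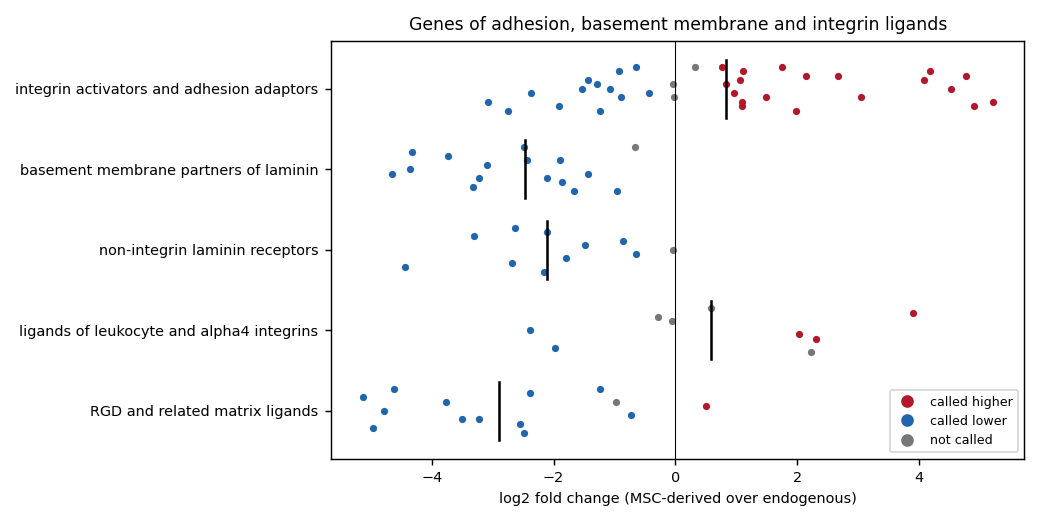
Log2 fold change (MSC-derived over endogenous) of each tested gene in 5 lists of integrin and laminin partners, with a vertical bar at each list's median and the call marked by colour. The adaptors lie on both sides of 0 around a median of 0.84. The basement membrane list has 15 of its 16 genes called lower, against 30.3% of all genes.

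The plot of partner genes shows a divided list of activators and adaptors, the proteins that link integrin tails to actin. Of 35 tested, 19 were called higher (54.3%) and 13 lower (37.1%), with a median of 0.84. Among all genes 31.3% were called higher and 30.3% lower, so the lower share lay near that of all genes. By mean TPM the leading genes among those called were Rap1b, the small GTPase of integrin activation (465 to 482 against 239 to 323 CPM; 0.77 ± 0.11, adjusted p = 0.000656), and Zyx, a protein of stressed focal adhesions (404 to 437 against 124 to 166 CPM; 1.5 ± 0.11, adjusted p = 1.97e-05). The leading lower genes were Actn4, which crosslinks actin (253 to 265 against 462 to 486 CPM; -0.89 ± 0.06, adjusted p = 1.11e-05), and Nedd9, a docking protein (83.5 to 93.8 against 192 to 227 CPM; -1.24 ± 0.09, adjusted p = 1.70e-05).

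Some families within this list went opposite ways. The following genes were chosen after their values were seen. Of the kindlins, which activate integrins, Fermt3 of blood cells was higher (4.53, adjusted p = 1.2e-05) and Fermt2 of mesenchymal cells was lower (-1.91, adjusted p = 1.56e-05). Of the parvins, Parvg was higher (4.90, adjusted p = 5.23e-07), as was Parvb (2.15, adjusted p = 3.38e-05), and Parva was lower (-2.37, adjusted p = 1.96e-06). Of the focal adhesion kinases, Ptk2b was higher (4.19, adjusted p = 0.000263) and Ptk2 was lower (-1.07, adjusted p = 0.000818). Tln1 was higher (1.09, adjusted p = 5.76e-05) and Tln2 lower (-1.53, adjusted p = 0.00153). Ilk was not called (-0.04, adjusted p = 0.641) but was called lower without endogenous library 1 (-0.12, adjusted p = 0.0291). Whether blood cell markers account for this division was not tested.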

How the data were processed

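Total RNA of Tomato+ cells was sequenced in 6 libraries, 3 per group, and the study states 3 mice per group. Reads were aligned with Bowtie2 (2.2.5) and genes were quantified with RSEM (1.2.12), as the submitters' processing notes name them, on the mouse build mm9. The study's methods name other versions of both tools and a further aligner, HISAT2, and which were used for the deposited table is not settled by the sources used here. The authors deposited RSEM expected counts, not normalized, TPM and FPKM per gene in 1 table. The FPKM enter no printed value. Columns were matched to samples by name. A further 6 normalised read count columns and 8 columns of group averages were not used.

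Expected counts were rounded, which changed 20.6% of the values, and fitted in R 4.3.3 with edgeR 4.0.16 (TMM, filterByExpr, glmQLFit and glmQLFTest, no block) over all 14289 genes that passed, with Benjamini-Hochberg adjustment and a threshold of 0.05. Standard errors are the log2 fold change divided by the square root of F. Levels are CPM scaled by TMM. Folds are printed as 2 to the power of the fitted log2 value. The alternatives were other scalings and filters, a robust fit, a replicate block, DESeq2 1.42.0, limma 3.58.1 on log2(TPM + 1) and log2(TPM + 0.1), stricter thresholds and leaving out each library. On simulated counts for this comparison (14150 genes, 200 of them changed) the fit recovered 65% of 2-fold and 93% of 4-fold changes, and 4.82% of its calls were false. The simulation gave both groups the same spread and changed far fewer genes than were called here. In the data the biological coefficient of variation was 6.77% in the MSC-derived and 35.3% in the endogenous group. These rates may therefore not hold for the real libraries.

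Replicate numbers come from sample names. Deviations of same-numbered libraries from their group means correlated at 0.013, 0.00222 and 0.0178, so the numbers were not treated as pairs. No label says that libraries of a group come from separate animals, so that p-values measure the spread between these libraries. Limits set by 3 counts cover counting error only. Promoter windows are RefSeq's on GRCm38.p6 and coding sequences GENCODE's. No coordinate was taken across builds. Of the 37 genes, 1 is not reported here by name or value, though the counts include it. All others are named, with the 2 genes of each partner list with the highest mean TPM called in each direction, the first markers of the cell type lists used, and a few genes said to be chosen after their values were seen. The genes and lists were chosen with earlier results of these data known. Figures were drawn with matplotlib 3.10.9.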

Additional observations from a re-analysis of the deposited data

How the results depend on the processing

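Of the 32 tested genes, 26 had the same call in every alternative that tested them, and of the fits of single genes 493 kept direction and side of the threshold, 7 lost the call, 8 gained it and 3 reversed. The reversals were those of Itgb5 in limma on log2(TPM + 1) and on log2(TPM + 0.1), at -0.13 each, where the median of all genes was -0.28 and -0.34, and of Itga2, which ranged from -1.77 to 0.14 over fits that left out 1 library. The cause was not tested. The call of Itgb5 was also lost under upper quartile scaling (adjusted p = 0.113) and under TMM without the 50 genes with the most counts (adjusted p = 0.0536). Itga6 gained a call under upper quartile scaling (adjusted p = 0.0404) and in both limma fits (adjusted p = 0.0272 and 0.0270), as did Itga2b in both limma fits (0.0248 and 0.0302). The single RGD ligand called higher fell to 0 in both limma fits and under the stricter rule that also asked for a 2-fold change. The replicate block left 6 integrin α genes called higher and 8 lower, and 8 laminin genes lower, with 4103 genes called higher and 3920 lower over all genes, and it changed no call of the 32. Same-numbered libraries share only a number, and the correlations of their deviations were between -0.0145 and 0.0178 over all pairs. The biological coefficient of variation was 6.77% in the MSC-derived and 35.3% in the endogenous group, and calls of integrin and laminin genes that change without endogenous library 1 are given with the values. Without it the partner genes called lower were 14 adaptors, 16 basement membrane genes, 11 non-integrin receptors and 13 RGD ligands, and 4 leukocyte ligands were higher and 3 lower. Calls also rose over all genes in that fit, to 5562 higher and 5686 lower of 14728. With all 6 libraries they were 4468 and 4333 of 14289. Leaving out each library moved Itgad from 10.58 to 13.79. At this depth differences in Itgae, Itgb6 and Lama3 were not detectable.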
